A study of Mus musculus with 6 samples.

Results

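Perilipins, CIDE proteins and the proteins that assemble lipid droplets were followed in epididymal white adipose tissue, the fat pad beside the epididymis, of mice fasted for 24 h. The set was taken by gene symbol and holds 10 of the 45777 genes in the deposited table: Plin1, Plin2, Plin3, Plin4, Plin5, Cidea, Cidec, Bscl2, Fitm2 and Cav1. All 10 passed the filter on low counts. The tissue came from 6 mRNA libraries on a C57BL/6 background. The 3 libraries labelled WT carried Pak4 flox/flox, that is, alleles of the kinase gene Pak4 flanked by loxP sites. The 3 labelled KO carried Pak4 flox/flox with Adipoq-Cre, a Cre recombinase driven by the adiponectin promoter and so active in adipocytes. Both groups therefore share the floxed alleles and the fast. No fed group and no group with Cre alone is analysed here, and the labels used here give neither age nor sex. They name adipocytes as the cell type, but the protocol describes whole fat pads, which also hold vessels, immune cells and fibroblasts. The comparison asks how deletion of Pak4 from adipocytes alters transcripts of the fasted fat pad. Libraries are called WT 1 to 3 and KO 1 to 3 after the numbers in their titles, which do not state that each is a separate animal, so the p-values reflect variation among libraries that may be technical.

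A fat cell keeps its triglyceride in a lipid droplet, a core of neutral lipid inside a single layer of phospholipid. Perilipins coat that layer and control which lipases reach the core, CIDE proteins pass lipid from small droplets into larger ones, and seipin and FIT proteins help droplets form at the endoplasmic reticulum. In fasting, catecholamine signalling phosphorylates perilipin 1, which releases the activator of adipose triglyceride lipase and opens the store to lipolysis.

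Depth was between 62854465 and 72005658 counts. Pak4, the targeted gene, had 337 to 358 counts under the WT label, and 815, 744 and 675 in KO 1, KO 2 and KO 3. Its gene total was thus higher, not lower, under the KO label (log2 fold change 0.96 ± 0.14, adjusted p 0.0898 with edgeR). Gene totals do not show which exons the reads cover, so neither loss of the floxed exons nor a swap of labels was tested. Directions below are therefore between labels and not between genotypes. On the first principal component of all genes KO 1 lay at -1.85, WT 1 to 3 at -12.3, -53.5 and -26.7, and KO 2 and KO 3 at 40.9 and 53.5, so KO 1 stood between its own group and the libraries labelled WT. In Pak4, by contrast, KO 1 was the KO library furthest from the WT libraries. Results that rest on KO 1 are given with and without it. Mature adipocyte markers were abundant: 14 of 14 found in the table were tested, and their summed level was 53792 to 62074 CPM in WT and 55207 to 58388 CPM in KO libraries. These like sums hold unlike genes: 10 of 14 had a log2 fold change below 0, where 47.9% of all genes did. Lpl, the lipoprotein lipase, had means of 13049 CPM in WT and 8787 CPM in KO libraries, and Cfd, which encodes adipsin, 7707 CPM in WT and 15671 CPM in KO libraries. None of 7 epididymis and sperm markers passed the filter, and the highest of them reached 31 counts in a library.

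No droplet gene passed the test between labels, although all 10 fitted values lay below 0. CPM stands here for counts per 1000000 counts of a library after TMM scaling, a correction for the composition of each library, and fold changes are log2 values of KO over WT ± SE. With edgeR's quasi-likelihood test 0 of 10 members had an adjusted p under 0.05, where 0.0168% of the 17820 genes tested did, and limma voom also called 0. At an unadjusted p under 0.05 there was 1 lower member, Cav1, and 0 higher ones, beside 9.71% of all genes lower and 9.66% higher at that limit. Cav1 was also the only member whose 2 groups did not overlap, where 12.5% of all genes lay wholly lower and 13.7% wholly higher in KO. With all 6 libraries these shares are near the background. Without KO 1 there were 7 lower and 0 higher members at an unadjusted p under 0.05 (Plin1, Plin2, Plin4, Plin5, Cidec, Fitm2 and Cav1). In that fit 15.2% of all genes were lower and 13.2% higher. Leaving out WT 1, WT 2, WT 3, KO 2 or KO 3 in its place gave 1, 0, 1, 0 and 0 members at that limit. The 7 thus rest on 1 removal, of a library picked out from these same data. Of all genes with all 6 libraries, 47.9% had a fold change below 0. The median over the members was -0.26, beside 0.02 over all genes tested. The members can be expressed in the same cells and are not taken as independent of each other. In a bulk library, fewer fat cells and less RNA per fat cell cannot be told apart.

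**Figure D1:**
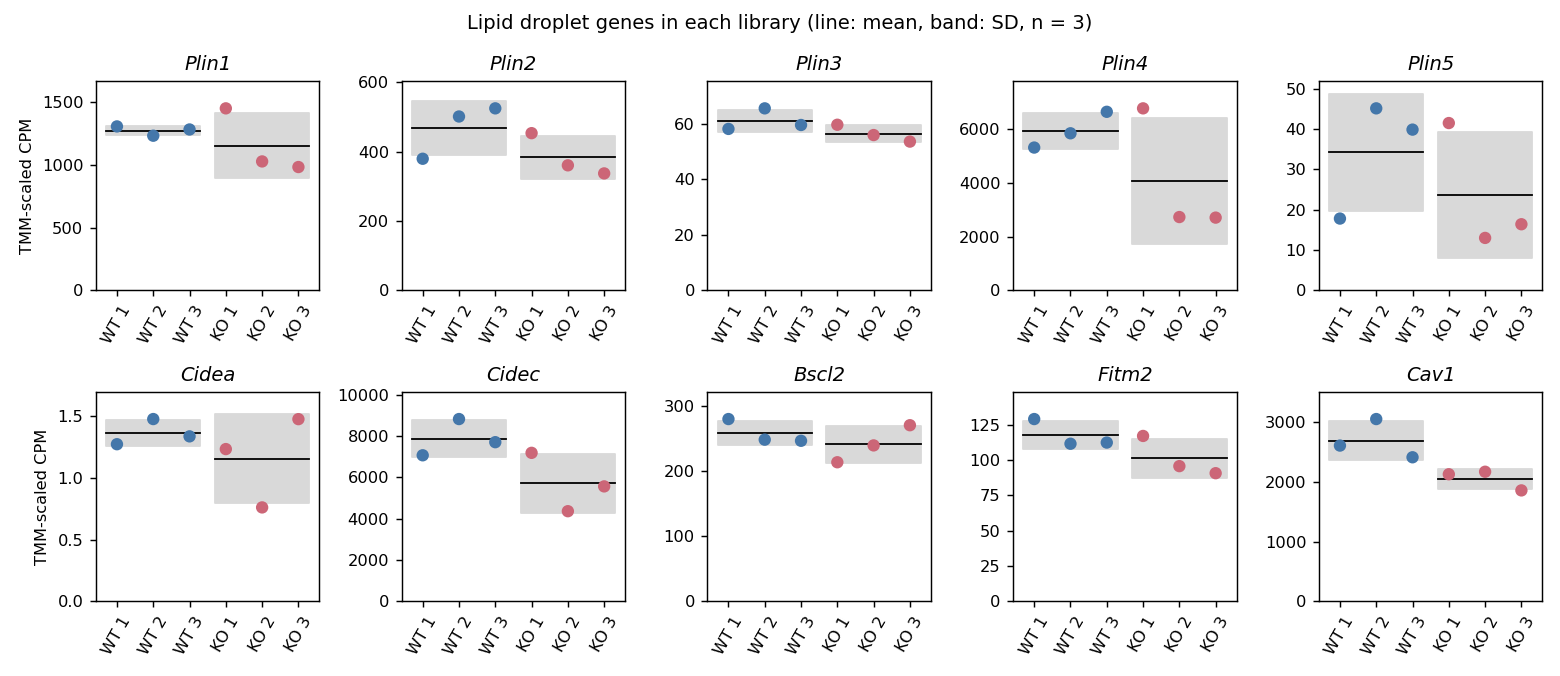
TMM-scaled CPM of the 10 lipid droplet genes in each library (points, blue for WT and red for KO), with the mean as a line and the SD as a grey band over n = 3. Each panel has its own vertical axis from 0. In Plin4 and Plin5 the point of KO 1 stands at or near the highest WT points, at 6783 and 41.5 CPM, while KO 2 and KO 3 lie far below it.

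The levels of the genes differed by a wide range when compared per length, in the authors' deposited TPM (transcripts per 1000000). Cidec was the highest, with a mean of 7339 TPM over the 6 libraries and rank 17 among all genes of the table. It was followed by Cav1 at 1775 TPM, Plin4 at 1516 TPM and Plin1 at 1193 TPM, whose ranges over libraries overlapped each other. Plin2 (439 TPM), Bscl2 (302 TPM), Fitm2 (124 TPM), Plin3 (50.8 TPM) and Plin5 (27.4 TPM) came next, each with a range that did not overlap that of its neighbours in this order. Cidea was the lowest at 2.01 TPM. Together the 10 genes made up 1.33% to 1.50% of all TPM in WT 1 to 3, and 1.40%, 0.95% and 1.01% in KO 1, KO 2 and KO 3. The summed level of KO 1 thus lay within the WT range and those of KO 2 and KO 3 below it.

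Plin1 encodes the main coat protein of the adipocyte droplet and the gate of hormone-driven lipolysis. It had 1302, 1229 and 1278 CPM in WT 1, WT 2 and WT 3, and 1446, 1025 and 980.0 CPM in KO 1, KO 2 and KO 3. The WT libraries lay close together, and the KO libraries fell on both sides of them, with KO 1 the highest of all 6. The means were 1269.7 ± 37.6 and 1150.1 ± 257 CPM (SD, n = 3 each), a log2 fold change of -0.14 ± 0.17 with an adjusted p of 0.669. Its 95% interval, -0.54 to 0.25, holds changes in both directions. Without KO 1 the fold change was -0.34 ± 0.11 (adjusted p 0.107, the lowest of its alternatives, which reached 0.974), and without KO 3 it was -0.04.

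Plin4 encodes a long perilipin with a stretch of amphipathic repeats that coats young droplets, and it is a known target of PPAR gamma. It had 5323, 5855 and 6655 CPM in the WT libraries and 6783, 2735 and 2714 CPM in KO 1, KO 2 and KO 3. KO 1 was the highest library of all, and KO 2 and KO 3 were the lowest, so the groups overlapped through KO 1 alone. The means were 5944 ± 670.4 and 4078 ± 2343 CPM (log2 fold change -0.54 ± 0.36, adjusted p 0.432). Without KO 1 the fold change was -1.13 ± 0.16 with an adjusted p of 0.0262, and Plin4 was then the 1 member of 10 that passed, where 5.57% of all genes did. Its adjusted p ran from 0.0262 to 0.761 over all alternatives. The fold change was -0.33 without KO 2 and -0.32 without KO 3. KO 1 held 2.49 times the mean of KO 2 and KO 3.

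Plin5, the perilipin of oxidative tissues that ties droplets to mitochondria, spread even more within each label. The WT libraries had 17.8, 45.1 and 39.8 CPM, and the KO libraries 41.5, 13.0 and 16.4 CPM. WT 1 sat with KO 2 and KO 3 at the low level, and KO 1 sat with WT 2 and WT 3 at the high one. The means were 34.2 ± 14.5 and 23.6 ± 15.5 CPM, with a log2 fold change of -0.54 ± 0.54 (adjusted p 0.608) and a 95% interval of -1.84 to 0.77. Without KO 1 it was -1.22 ± 0.40 (adjusted p 0.120, with 0.120 to 0.866 over the alternatives). With any 1 library left out it ran from -1.22 to -0.25, the latter without KO 2. KO 1 held 2.82 times the mean of the other two KO libraries.

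Plin2 coats droplets in most cell types, among them lipid-laden macrophages, and Plin3 moves from the cytosol to newly formed droplets. Plin2 had 379, 501 and 524 CPM in WT and 453, 360.3 and 337 CPM in KO libraries. The lowest 2 libraries were KO 2 and KO 3, while WT 1 lay below KO 1. Its log2 fold change was -0.29 ± 0.17 (adjusted p 0.372), and -0.43 ± 0.16 without KO 1. Plin3 had 58.2, 65.6 and 59.6 CPM in WT and 59.7, 56.0 and 53.6 CPM in KO libraries. It varied the least of the 10, and its log2 fold change was -0.12 ± 0.09 (adjusted p 0.483, 95% interval -0.32 to 0.09), and -0.06 without WT 2. Macrophage markers went with Plin2 in the opposite direction: 12 of 12 lay above 0, 7 had an unadjusted p under 0.05, 0 of 12 passed in edgeR's test, and their summed level was 1788 to 2170 CPM in WT and 1910 to 2583 CPM in KO libraries. None of them was at 0 in any library. Their part in the Plin2 values was not tested.

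The make-up of the perilipin coat at the transcript level set KO 2 and KO 3 apart from the other 4 libraries. Plin4 made up 48.7%, 49.3% and 51.4% of the summed perilipin TPM in WT 1 to 3, and 50.8%, 36.6% and 37.2% in KO 1 to 3. Plin1 made up 37.8%, 33.6% and 32.3% in WT and 35.3%, 44.5% and 44.1% in KO libraries. In KO 2 and KO 3 Plin1 was thus the most abundant perilipin transcript, and in the other 4 libraries Plin4 was. Shares of a library sum to the whole, so a lower share of Plin4 raises the others. Plin1 itself had 1066 and 969 TPM in KO 2 and KO 3, below its 1141 to 1284 TPM in WT, and 1437 TPM in KO 1. The ratio of Plin4 to Plin1 TPM was 1.29 to 1.59 in WT, 1.44 in KO 1, and 0.82 and 0.84 in KO 2 and KO 3. Plin2 held 11.6% to 14.4% in WT and 11.6% to 16.2% in KO libraries, while Plin3 held 1.28% to 2.14% and Plin5 0.50% to 1.19% over all 6. The summed perilipin TPM was 3336, 3394 and 3969 in WT and 4069, 2394 and 2198 in KO libraries. These shares are descriptions and were not tested.

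**Figure D2:**
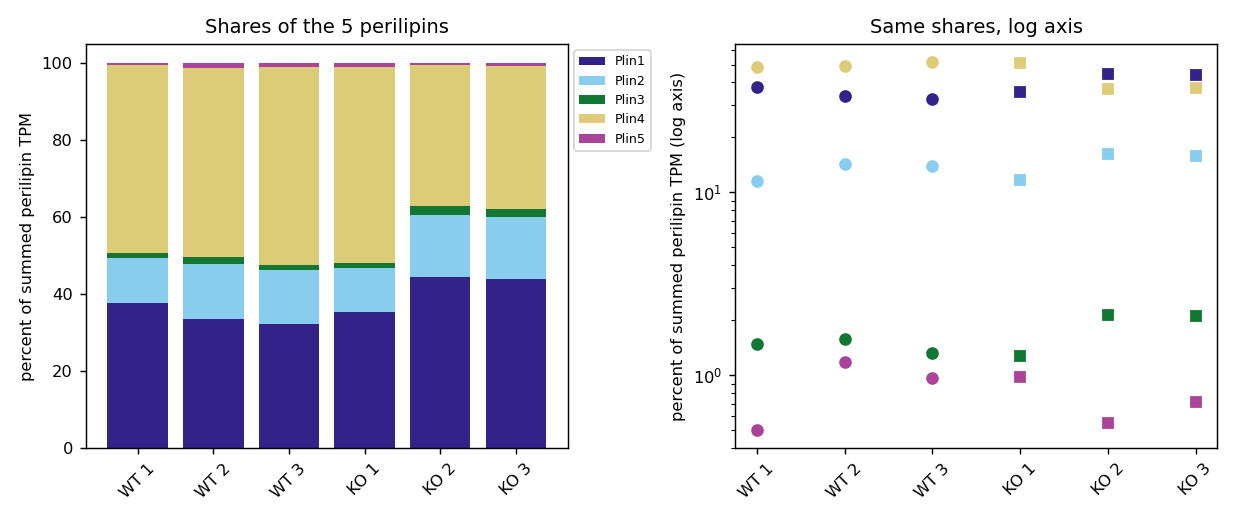
Each perilipin as a percent of the summed TPM of the 5 perilipins in each library, stacked on a linear axis (left) and as points on a log axis (right; circles WT, squares KO). The share of Plin4 lies between 48.7% and 51.4% in the WT libraries and KO 1, and at 36.6% and 37.2% in KO 2 and KO 3.

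Plin4 and Plin5 are neighbours. In RefSeq on GRCm38.p6 Plin4 spans chromosome 17 from 56100587 to 56109948 and Plin5 from 56111597 to 56117606, with 1648 bases between them and both read from the minus strand. Plin3 lies on the same chromosome at 56278962 to 56290511. Plin1 is on chromosome 7 at 79721164 to 79732904. The 250 bases upstream of an annotated start are shown for Plin4 and Plin5, the perilipins with the widest spread between libraries, and for Plin1, the steadier main coat gene. They are from RefSeq on GRCm38.p6, minus strand, written 5′ to 3′ and ending just before the start, at chr17:56109783-56110032, chr17:56117549-56117798 and chr7:79732777-79733026 in this order. RefSeq also has gene models of all 3 that start further upstream.
Plin4: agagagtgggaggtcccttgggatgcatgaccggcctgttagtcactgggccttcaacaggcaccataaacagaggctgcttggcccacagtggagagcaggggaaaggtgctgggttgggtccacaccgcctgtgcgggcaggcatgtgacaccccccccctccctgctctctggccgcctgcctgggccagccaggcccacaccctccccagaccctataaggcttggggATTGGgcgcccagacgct
Plin5: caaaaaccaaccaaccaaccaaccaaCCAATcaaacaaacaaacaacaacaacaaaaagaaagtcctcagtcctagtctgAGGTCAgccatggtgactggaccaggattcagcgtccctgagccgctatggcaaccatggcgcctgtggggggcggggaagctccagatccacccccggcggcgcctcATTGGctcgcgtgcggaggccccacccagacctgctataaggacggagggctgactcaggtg
Plin1: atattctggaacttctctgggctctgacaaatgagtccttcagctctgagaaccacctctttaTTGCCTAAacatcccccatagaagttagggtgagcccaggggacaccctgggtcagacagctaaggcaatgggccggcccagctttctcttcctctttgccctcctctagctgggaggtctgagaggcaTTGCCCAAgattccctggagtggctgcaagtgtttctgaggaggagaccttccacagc
Capitals mark CCAAT boxes (CCAAT, or ATTGG on the other strand), the nuclear receptor half-site AGGTCA and the C/EBP site TTGCNNAA. Plin4 holds 1 CCAAT box, Plin5 holds 2 with 1 half-site, and Plin1 holds 2 C/EBP sites. Over 32851 windows of this length, searched on both strands, 33.9% held a CCAAT box, 14.0% a half-site and 9.56% a C/EBP site. The DR1 element, a direct repeat of that half-site with a single free base between, the type that PPAR binds with RXR, was in 0.033% of all windows and in none of the 14 windows of the 9 members with an entry. A match describes letters only, and a missing match says nothing of the factor.

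CIDE proteins enlarge droplets, and Cidec, also called FSP27, is needed for the single large droplet of the white fat cell. Cidec had 7068, 8823 and 7703 CPM in WT and 7186, 4359 and 5561 CPM in KO libraries. KO 2 and KO 3 were the lowest, and KO 1 lay just above WT 1, so the groups overlapped by 1 library. The means were 7864 ± 889 and 5702 ± 1419 CPM, a log2 fold change of -0.46 ± 0.21 (adjusted p 0.275), with a 95% interval of -0.96 to 0.03. Without KO 1 it was -0.67 ± 0.18 with an adjusted p of 0.0758, the lowest of its alternatives, which reached 0.570. Cidec lies on chromosome 6 at 113424634 to 113435760.

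Cidea, the CIDE protein typical of brown and beige fat, was near the limit of what these libraries can resolve. It had 78, 99 and 82 counts in WT and 83, 53 and 110 counts in KO libraries. KO 2 was the lowest and KO 3 the highest count. The exact 95% intervals of the unscaled CPM were 0.61 to 1.06 in KO 2 and 1.28 to 1.87 in KO 3, and they cover counting error only, since copies made by PCR are counted as reads. The log2 fold change was -0.24 ± 0.28 (adjusted p 0.669), and it was -0.0090 without KO 2 and -0.45 without KO 3, so single libraries set its size. Among the markers of brown and beige fat Ucp1 had at most 23 counts in a library and 0 in KO 2 and KO 3. Of the 8 tested markers 6 lay below 0 (median -0.66), where 47.9% of all genes did, and 0 passed in edgeR's test. At an unadjusted p under 0.05 there was 1 lower marker, beside 9.71% of all genes lower. Ppara (0.23 ± 0.34) and Ppargc1a (0.28 ± 0.42) lay above 0. Cox7a1 (-1.34 ± 0.38) and Cox8b (-0.90 ± 0.40), subunits of cytochrome oxidase, were lower in every KO library than in any WT library, as were 12.5% of all genes. The summed level, to which Ppara and Ppargc1a add most, was 32.6 to 33.3 CPM in WT and 20.0 to 38.2 CPM in KO libraries. The part of these markers in the Cidea values was not tested. A lncRNA gene, B430212C06Rik, overlaps Cidea by 540 bases and had 62 to 396 counts, and since it is not stated whether counting used strand, the Cidea counts are uncertain. Cideb, the liver-type CIDE gene, did not pass the filter.

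Bscl2 encodes seipin, the scaffold at which droplets bud from the endoplasmic reticulum, and its loss causes congenital lipodystrophy. It had 280.3, 249 and 247 CPM in WT and 214, 239.8 and 271 CPM in KO libraries. KO 1 was the lowest and KO 3 the second highest, an order unlike that of Plin4. The means were 259 ± 18.8 and 241 ± 28.5 CPM (log2 fold change -0.10 ± 0.12, adjusted p 0.675, 95% interval -0.38 to 0.18). The fold change was -0.02 without KO 1 and -0.19 without KO 3. Gng3 overlaps Bscl2 by 1780 bases and had 82 to 120 counts, beside at least 14386 for Bscl2.

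Fitm2 encodes FIT2, an endoplasmic reticulum protein that supports droplet budding. It had 129, 111 and 112 CPM in WT and 117, 95.6 and 90.6 CPM in KO libraries. KO 1 lay among the WT libraries and KO 2 and KO 3 below all of them. The means were 118 ± 9.85 and 101 ± 14.0 CPM, a log2 fold change of -0.22 ± 0.12 (adjusted p 0.350), and -0.34 ± 0.10 without KO 1 (adjusted p 0.0891, with values up to 0.817 in other alternatives).

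Cav1 encodes caveolin 1, which forms the caveolae of the fat cell surface, reaches the droplet surface and is also abundant in endothelium. It had 2611, 3056 and 2415 CPM in WT and 2130.1, 2172 and 1859 CPM in KO libraries. Every KO library, KO 1 among them, lay below every WT library. The means were 2694 ± 329 and 2054 ± 169.9 CPM, and the log2 fold change was -0.39 ± 0.15 with a 95% interval of -0.74 to -0.05 and an adjusted p of 0.218. With DESeq2 the fold change was -0.40 and the adjusted p 0.0480, so that Cav1 was the 1 member of 10 that passed there, where 7.16% of genes with an adjusted p did. Over all alternatives its adjusted p ran from 0.0480 to 0.498. Endothelial markers went in the same direction: 9 of 10 lay below 0, where 47.9% of all genes did. At an unadjusted p under 0.05 there were 6 lower and 0 higher markers, beside 9.71% of all genes lower and 9.66% higher. In edgeR's test 0 passed, and none was at 0 in any library. The markers' summed level was 258 to 342 CPM in WT and 219 to 234 CPM in KO libraries. Their part in the Cav1 values was not tested. Cav1 lies on chromosome 6 at 17306335 to 17341328.

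**Figure D3:**
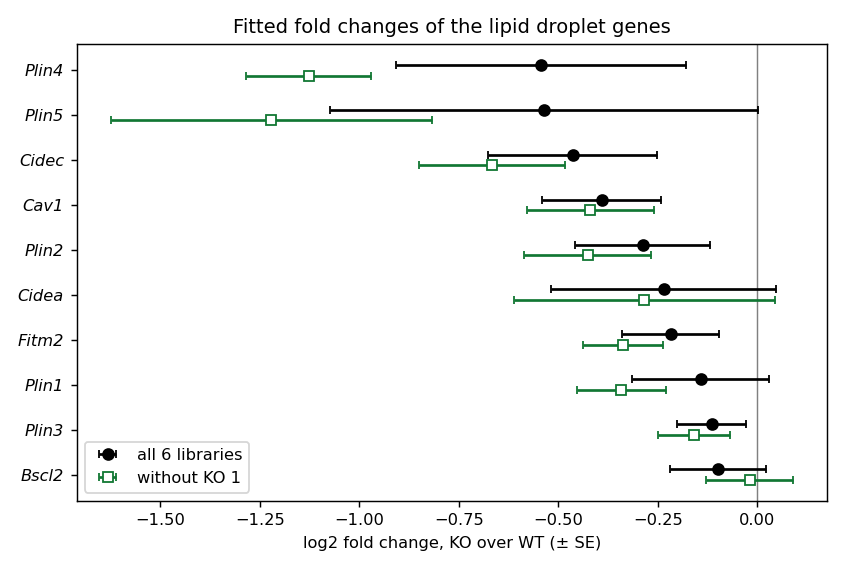
Fitted log2 fold change of KO over WT with its SE for each lipid droplet gene, from all 6 libraries (filled circles) and without KO 1 (open squares). All 10 values lie below 0 in both fits, and Plin4 moves from -0.54 to -1.13 and Plin5 from -0.54 to -1.22 when KO 1 is left out.

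The members differed in how much they varied among libraries of the same label. The SD of log2 CPM within labels was 0.81 for Plin5 and 0.55 for Plin4, at percentiles 94.7 and 87.4 of the tested genes. Cidec stood at 0.28, Plin2 at 0.24 and Plin1 at 0.22. At the other end were Plin3 at 0.08, Bscl2 at 0.14, Cav1 at 0.15 and Fitm2 at 0.16. The genes of droplet formation and Plin3 thus varied less than Plin4, Plin5 and Cidec. Cidea had an SD of 0.35 at a far lower count. KO 1 was the highest of the 3 KO libraries for 7 of 10 members (all 5 perilipins, Cidec and Fitm2), where this held for 38.2% of all genes.

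**Figure D4:**
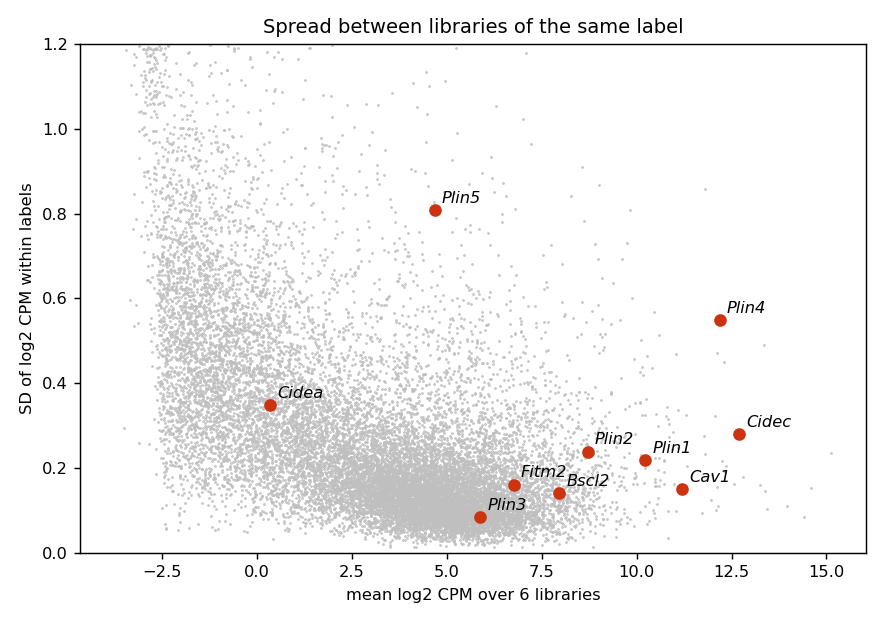
SD of log2 CPM within labels (vertical axis, shown up to 1.2) against the mean log2 CPM over the 6 libraries for all tested genes (grey) and the lipid droplet genes (red). Plin5 at 0.81 and Plin4 at 0.55 stand at percentiles 94.7 and 87.4 of all tested genes, while Plin3 lies at 0.08.

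Other genes of the lipid droplet were followed as 4 lists, and 0 of their 63 tested genes passed over all genes in edgeR's test. Of all genes tested, 47.9% lay below 0, and 9.71% were lower and 9.66% higher at an unadjusted p under 0.05. Of 25 tested droplet surface proteins 19 lay below 0 (median -0.18), and 7 lower and 0 higher ones had an unadjusted p under 0.05. They included Nsdhl, a sterol synthesis enzyme, at -0.83 ± 0.16, Pnpla3, a lipase relative, at -0.86 ± 0.19, Mettl7b, a methyltransferase family protein, at -1.18 ± 0.27, and Aifm2, a suppressor of ferroptosis, at -0.46 ± 0.11. All 4 had adjusted p between 0.119 and 0.147. They were named for the smallest p of the list, so the lack of overlap between their groups adds no support. Of the 25, 10 lay wholly lower and 1 wholly higher in KO, beside 12.5% and 13.7% of all genes. Of 20 genes of droplet formation and contact sites 12 lay below 0 (median -0.07). At an unadjusted p under 0.05, 4 were lower and 1 higher, beside 9.71% and 9.66% of all genes. Reep1, which shapes the endoplasmic reticulum, stood at -0.81 ± 0.14, with 10.5, 10.4 and 10.9 CPM in WT and 7.13, 5.24 and 5.84 CPM in KO libraries. Zfyve1, a droplet and autophagy protein, stood at -0.45 ± 0.11, Mfn2, which tethers mitochondria, at -0.44 ± 0.12, and Lpin1, a phosphatidate phosphatase, at -0.54 ± 0.21. Fitm1, the muscle relative of Fitm2, was named after its values were seen and had at most 0.26 CPM.

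Caveola proteins, the partners of Cav1, had a median of -0.43 with 6 of 8 tested genes below 0 and 3 lower and 0 higher at an unadjusted p under 0.05, where 9.71% of all genes were lower. The endothelial markers lay on the same side (median -0.41, 9 of 10 below 0). Of them 6 lay wholly lower in KO, beside 12.5% of all genes. Their part in the caveola values was not tested. Cav2, which forms complexes with caveolin 1, had 523, 667 and 539.7 CPM in WT and 418, 411 and 443 CPM in KO libraries (-0.44 ± 0.13, adjusted p 0.169). As for Cav1, no KO library reached a WT library. Ehd2, an ATPase at the caveola neck, stood at -0.67 ± 0.23 and Cavin2, a coat protein, at -0.42 ± 0.16, both with groups that did not overlap, and Cavin3 at -0.74 ± 0.35 with overlap. Of the 8 tested genes 3 lay wholly lower in KO, beside 12.5% of all genes. Cav2, Ehd2, Cavin2 and Cavin3 were named for the smallest p of the list, so a lack of overlap adds no support. Cavin1, the main coat protein of caveolae, was named after its values were seen: it had 2249, 3028 and 2599 CPM in WT and 2737, 1430.0 and 1195 CPM in KO libraries, so that KO 1 lay among the WT libraries.

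Transcriptional regulators of these genes lay on both sides of 0, with 5 of 10 below (median -0.04), where 47.9% of all genes were. At an unadjusted p under 0.05 there were 1 lower and 1 higher, near the shares of all genes (9.71% and 9.66%). Pparg, the nuclear receptor that drives Plin1, Plin4 and Cidec in fat cells, had 181, 155 and 176 CPM in WT and 222, 258 and 301 CPM in KO libraries. Every KO library was above every WT library (0.61 ± 0.14, adjusted p 0.135), as for 13.7% of all genes. Pparg was named for the smallest p of its list, so this lack of overlap adds no support. The fitted values of Plin1, Plin4 and Cidec lay below 0, and the part of Pparg in them was not tested. Ppard stood at -0.28 ± 0.12, Esrrg at -0.84 ± 0.44 and the PPAR partner Rxra at -0.24 ± 0.19. The count of passing genes over the 4 lists turned on KO 1 and on the tool: 11 passed without KO 1 (10 lower and 1 higher), where 5.57% of all genes did, and 12 with DESeq2 (11 lower and 1 higher), where 7.16% did. The 1 higher gene was Pparg in both.

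**Figure D5:**
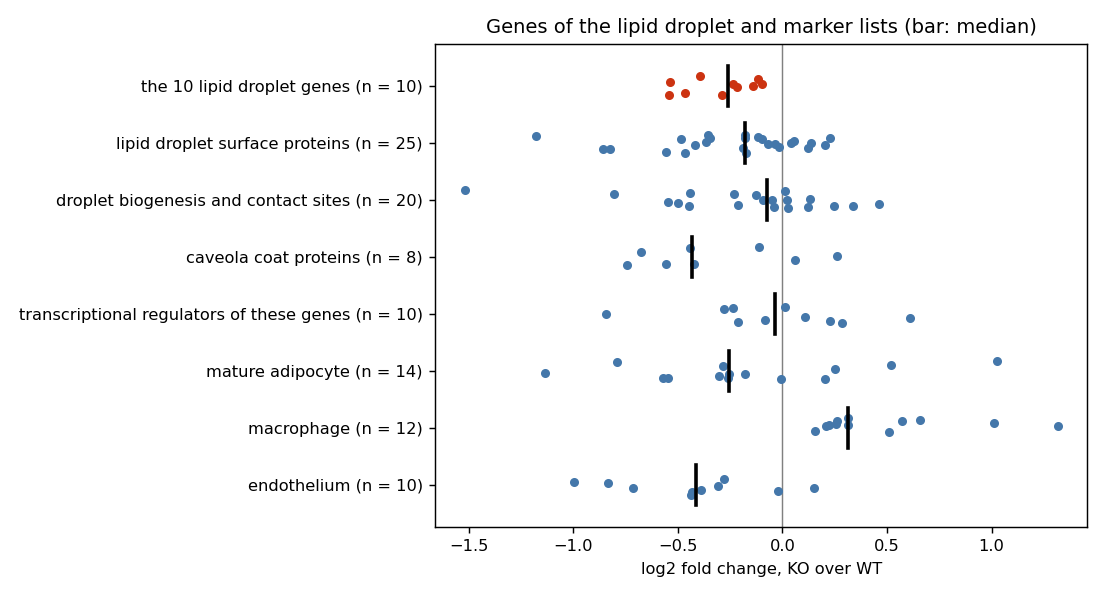
Fitted log2 fold change of KO over WT for the lipid droplet genes (red) and for each tested gene of the other lists (blue), with the list median as a bar. The medians are -0.26 for the lipid droplet genes, -0.43 for caveola proteins, -0.26 for mature adipocyte markers, 0.31 for macrophage markers and -0.41 for endothelial markers.

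The members nearest to 0 changed sides with the scaling. Mature adipocyte markers had a median of -0.26, with 10 of 14 below 0. When each library was scaled to those markers in place of TMM, an alternative chosen after the data were seen, the median of all genes moved by 0.18 and that of the members to -0.10. Plin1, Plin3 and Bscl2 then stood at 0.01, 0.05 and 0.09, and Plin4 at -0.43, Cidec at -0.31 and Cav1 at -0.22. With library size alone the median of all genes moved by 0.12, and Plin3 and Bscl2 stood at 0.00 and 0.02. All 10 members were below the median of all genes in each of the 15 fits run. These fits reuse the same libraries, and a change of scaling shifts all genes nearly alike, so their number adds no independent support.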

How the data were processed

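RNA was extracted with Trizol from tissue kept in RNAlater and sequenced from a stranded mRNA kit, per the labels' protocols. The submitters' processing notes name HISAT2 2.1.0, Bowtie2 2.3.4.1, StringTie 2.1.3b and the build mm10, without roles. The authors deposited 1 table with raw read counts per gene, which entered all tests. Its TPM values, scaled by the authors per length and to a fixed sum per library, served to compare genes and in 1 alternative fit. Its FPKM values, deposited per kilobase and per fragments, were not used. Gene identifiers were matched to RefSeq of GRCm38.p6, the assembly of mm10, by gene ID (99.8% matched, all 10 members among them).

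Genes were kept with filterByExpr (minimum count 10, total 15), scaled by TMM and fitted on the label alone with edgeR 4.0.16 in R 4.3.3 (robust quasi-likelihood, two-sided, Benjamini-Hochberg over all genes, threshold 0.05). The log2 CPM used a prior count of 2. SEs follow from the F statistic. DESeq2 1.42.0 and limma 3.58.1 were alternatives. The methods were run on simulated data with the same spread setting for all genes and no deviating library. That run cannot show how they handle a library such as KO 1. The members and gene lists were chosen with earlier results of these data known. All members were named, and for each list up to 4 genes with the smallest p.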

Additional observations from a re-analysis of the deposited data

How the results depend on the processing

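Of 140 refitted fold changes of the members (14 alternatives each), 135 lay below 0 and 2 passed the threshold. The refits reuse the same libraries, so these values are not independent of each other. The values above 0 came from scaling to adipocyte markers (Plin1 0.0113, Plin3 0.0529, Bscl2 0.0929) and from library size alone (Plin3 0.0039, Bscl2 0.0219). Those that passed were Cav1 with DESeq2 (-0.40) and Plin4 without KO 1 (-1.13). Leaving out 1 library at a time gave -1.13 to -0.32 for Plin4, -1.22 to -0.25 for Plin5 and -0.47 to -0.29 for Cav1. The number of members that passed was 1 with DESeq2 and 0 to 1 with 1 library left out, 1 being without KO 1, and 0 otherwise. Over all genes the number was 3, and it was 1152 with DESeq2, 5 with limma voom, 6 with adipocyte marker scaling and 1 to 1016 with 1 library left out. The lists of other droplet genes had 0, with 12 in DESeq2 and 0 to 11 with 1 library left out. The cause was not tested. The KO minus WT difference in the share of Plin4 was -8.24 percentage points and ran from -12.9 without KO 1 to -5.77 without KO 2, that of Plin1 was 6.73 and ran from 5.12 to 9.72, and that of Plin5 was -0.14 and reached 0.01 without WT 2. The SDs pooled over both labels were 5.77, 4.18 and 0.29 percentage points. With 3 libraries per label, leaving out 1 cannot move a difference by a whole pooled SD, so these SDs do not test stability. Since the shares sum to the whole, the gain in the share of Plin1 is not separate from the loss in that of Plin4.

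The fit with the replicate number as a replicate block called 1 gene and 0 members. Same-numbered libraries did not deviate together (correlations -0.17, -0.02 and 0.05), and not every library was nearest to its own number. With 3 libraries per label this cannot settle whether equal numbers mark a pair. Depth limits Cidea, which had 53 to 110 counts, and 3 libraries per group limit Plin4 and Plin5.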

Other observations

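Several other adipocyte genes of the fixed lists, named after their values were seen, had KO 1 above KO 2 and KO 3, as Plin4 did, and KO 2 and KO 3 below every WT library. Dgat2, which makes triglyceride, had 611, 632 and 789.8 CPM in WT and 756, 385 and 299 CPM in KO libraries. Gpd1, the source of glycerol phosphate, had 509, 517 and 660.4 CPM in WT and 535, 221 and 219 CPM in KO 1, KO 2 and KO 3. Trarg1, a partner of the glucose transporter GLUT4, had 665, 1172 and 988 CPM in WT and 1355, 542 and 423 CPM in KO libraries. None of these 3 passed (adjusted p 0.435, 0.281 and 0.758 with edgeR). Genes without this pattern were Adipoq, with 4819, 4850.0 and 3851 CPM in WT and 4548, 6347 and 5222 CPM in KO libraries, and Cfd, which encodes adipsin, with 11373, 4612 and 7136 CPM in WT and 13296, 15278 and 18439 CPM in KO libraries.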
